A study of Homo sapiens and Mus musculus with 21 samples.

Results

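The m6A writer complex genes METTL3, METTL14, WTAP, VIRMA, RBM15, RBM15B, ZC3H13 and CBLL1 were followed through the miCLIP lists of a study that deleted PCIF1, the enzyme that methylates the cap-adjacent adenosine. They are 8 of 20037 protein-coding genes of the reference and were picked by name, not by a measured value, though with earlier results of these data known. All 8 were found in the RefSeq table of GRCh38, and their spans were read from it. HEK293T, a transformed human embryonic kidney line, was measured as PCIF1 knockout (KO, 2 miCLIP libraries) and as wild type (WT, 1 library), and mouse embryonic fibroblasts (MEF) as wild type (2 libraries). The labels name no clone for the KO cells, nor whether each replicate came from its own culture. Input RNA (3 KO and 2 WT libraries), ribosome-protected fragments (3 KO and 2 WT) and SLAM-seq (KO and WT at 0, 6 and 12 h of uridine chase) complete the 21 libraries.

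The writer places a methyl group on the N6 of adenosines inside transcripts while they are made, mostly in DRACH motifs, where D is A, G or T, R is A or G, and H is A, C or T. METTL3 is the catalytic subunit and METTL14 its partner that shapes the RNA-binding groove. WTAP holds the pair in nuclear speckles, and VIRMA, RBM15, RBM15B, ZC3H13 and CBLL1 form the rest of the regulatory part that steers the pair to its targets. PCIF1 works apart from this complex, on the first transcribed adenosine only, where the product is m6Am.

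A RefSeq promoter window was at hand for 7 members, and the starts of METTL3 and ZC3H13 are shown because they, among these 7, lay in a region of the authors' strict m6Am list. VIRMA has no strand in the tables used, and no region lay within 50 nt of either end of its span. Each stretch holds the 60 bases before the annotated start and 30 bases from it (RefSeq, GRCh38.p14), and the capitals mark the bases inside the region.
METTL3, chr14:21511311-21511400, minus strand: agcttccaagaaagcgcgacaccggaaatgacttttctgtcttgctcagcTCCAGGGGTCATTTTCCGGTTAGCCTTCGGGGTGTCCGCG
ZC3H13, chr13:46052717-46052806, minus strand: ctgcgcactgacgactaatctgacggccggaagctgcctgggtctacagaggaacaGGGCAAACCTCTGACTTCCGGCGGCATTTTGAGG

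In both stretches the annotated first base is an A that follows a C, as it also is in CBLL1 (below), which has no such region. The METTL3 region (chromosome 14, 21511251 to 21511350) reaches 10 nt upstream of the start, and that of ZC3H13 (chromosome 13, 46052651 to 46052750) reaches 4 nt upstream. The starts of 4 members with no such region follow, with 20 bases before the start and 10 from it, and the first base in capitals.
METTL14, chr4:118685372-118685401, plus strand: gccaattccggccgcgccggAagtctctac
CBLL1, chr7:107744122-107744151, plus strand: cgcggttgacttccgctcccActgtgctct
RBM15, chr1:110339357-110339386, plus strand: agacaaataattttcccaatGagactgtag
WTAP, first entry, chr6:159727097-159727126, plus strand: ggcccgcccctcccctcggcCgcttccctt
WTAP, second entry, chr6:159727486-159727515, plus strand: gggcggcggggcctggtttcCtccctcagc

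The annotated first base was thus an A in METTL3, ZC3H13, METTL14 and CBLL1, a G in RBM15, and a C in both entries of WTAP. VIRMA and RBM15B are named only. An annotated start is a single position, and the start used in these cells was not measured. Among protein-coding genes with a window, 58.2% of the 1489 with a region within 50 nt of their start began with A there, against 50.7% of all 15843.

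By the authors' score, the ZC3H13 region (3.87) ranked 277th and the METTL3 region (3.65) ranked 397th of 2360, both above the list's median of 2.90. The score's scale is not stated, so it only orders regions within the list. Of all protein-coding genes with a known strand, 9.4% had a region within 50 nt of their start, which is the share beside which 2 of the 7 members with a known strand should be read. The nearest region to the RBM15B start lay 5935 nt away on its strand, and those of METTL14, WTAP, RBM15 and CBLL1 lay farther. Neither the METTL3 nor the ZC3H13 region held a listed DRACH site in KO replicate 1, KO replicate 2 or WT. The regions have no replicates.

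**Figure D1:**
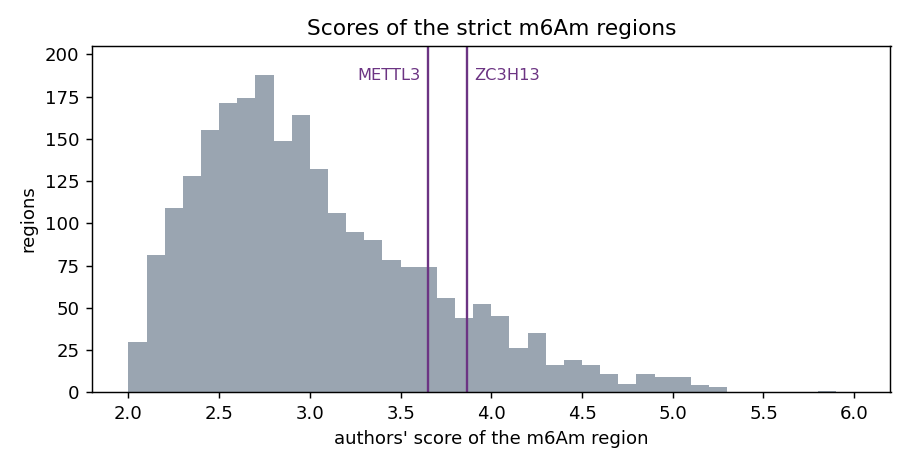
Number of strict m6Am regions (vertical axis) by the authors' score (horizontal axis, bins of equal width). The vertical lines mark METTL3 at 3.65 and ZC3H13 at 3.87, both to the right of the list's median of 2.90.

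The KO and WT lists of internal sites address whether transcripts of the m6A writer keep their own m6A without PCIF1. Each list gives single positions, the number of reads there and the number of those that carry the substitution left by the crosslinked antibody, with at least 2 substituted reads per site. The lists held 40768 sites in KO replicate 1, 47644 in KO replicate 2 and 43663 in WT, and the median number of reads at a site was 37, 42 and 30 in the same libraries. At 974 of 974 listed positions inside RefSeq promoter windows, the motif named by the file was read with its central A 1 nt before the position, so a listed position is the C after the methylated A. As a check of the cell line, 7 of 8 HEK293T markers had a site in WT (4 and 6 in KO replicates 1 and 2). Of all protein-coding genes 47.7% had a site in WT, and 46.6% and 48.5% in KO replicates 1 and 2. The marker count in KO replicate 1, where NEFM, NEFL and GATA3 had 0 sites, is thus near that share. IRS4 had the most sites (58 and 60 in the KO libraries, 69 in WT), and PAX2 had 1 site in KO replicate 2 and none in the others. Of 6 fibroblast markers COL1A1 had 1 site in WT, and of 4 hepatocyte markers none had any. The span of PCIF1 itself held 1, 1 and 2 sites in KO replicates 1 and 2 and WT, and its RNA level was not analysed here, so the deletion was not checked.

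All 8 members carried m6A sites in all 3 libraries, whereas a site was listed for 46.6% of protein-coding genes in KO replicate 1, 48.5% in KO replicate 2 and 47.7% in WT. Together they had 84 sites in KO replicate 1, 108 in KO replicate 2 and 98 in WT. The median member had 11 and 15.5 sites in the KO libraries and 14.5 in WT, against 3 for all protein-coding genes with a site in each of the 3 libraries. Reads were also deeper at their sites, with a median of 72 and 81 reads in the KO libraries and 67.5 in WT, against 37, 42 and 30 for all sites. The members' rows in the input counts were not identified, so their transcript level is not given here, nor is exon length. The part of depth in the number of sites was not tested. For the sum over the 8 genes, WT lay between the KO libraries.

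**Figure D2:**
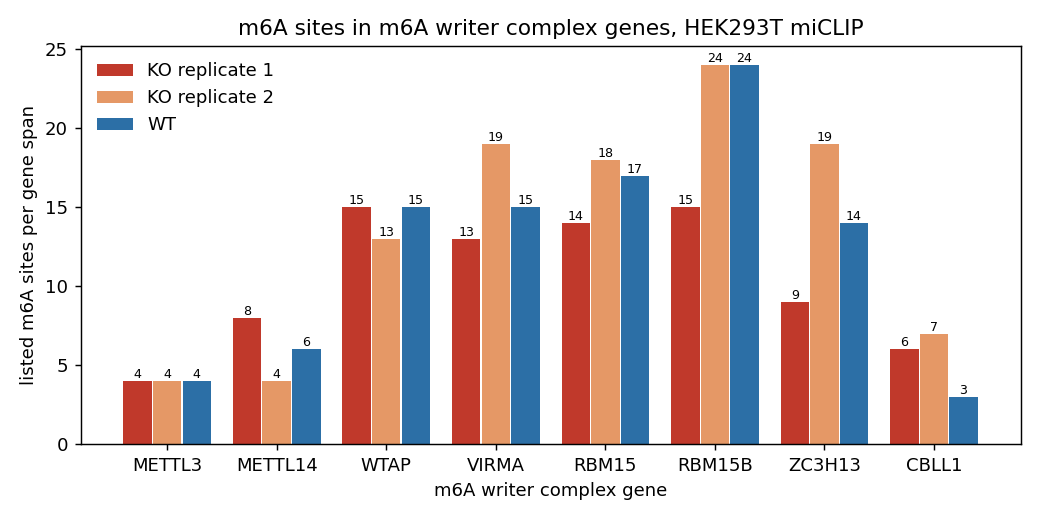
Number of listed m6A sites within each gene span (vertical axis) for the 8 writer genes (horizontal axis) in KO replicate 1, KO replicate 2 and WT, 1 bar per library with its count above it. RBM15B had the most sites in WT (24) and CBLL1 the fewest (3), and METTL3 had 4 in every library.

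METTL3 (chromosome 14, 21498138 to 21511340, minus strand) had 4 sites in each library, at 8 different positions. The median of all protein-coding genes with a site was 3 in each library. Only the position at 21503347, in a GGACT motif, was listed in all 3. There 3 of 80 reads (3.75%, exact 95% interval 0.78 to 10.6%) carried the substitution in KO replicate 1, 14 of 137 (10.2%, 5.70 to 16.6%) in KO replicate 2, and 10 of 96 (10.4%, 5.11 to 18.3%) in WT. KO replicate 2 and WT were alike in value, KO replicate 1 was lower, and all 3 intervals overlapped. A second GGACT, at 21503381, was listed in KO replicates 1 (3 of 65) and 2 (9 of 100) and not in WT. The site nearest to the METTL3 start, 490 nt from it, was listed in KO replicate 1 with 2 of 4 reads, an interval of 6.76 to 93.2% that says little.

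METTL14 (chromosome 4, 118685392 to 118715430, plus strand) had 8 sites in KO replicate 1, 4 in KO replicate 2 and 6 in WT. Of its 11 positions 10 lay within 953 nt, from 118710088 to 118711040, and the nearest to the end of the span lay 4390 nt from it. At 118710088 (TGACT) the substitution was in 3 of 56 reads (5.36%) in KO replicate 1, 3 of 65 (4.62%) in KO replicate 2 and 6 of 54 (11.1%) in WT. At 118710581 (AGACT) it was in 9 of 102 (8.82%), 4 of 97 (4.12%) and 5 of 48 (10.4%) in the same libraries. WT was highest at both, and its interval at 118710581 (3.47 to 22.7%) overlapped those of the KO libraries. The intervals here and elsewhere cover counting error only and leave out the spread between libraries. They treat reads as independent molecules, which was not checked.

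WTAP (chromosome 6, 159726693 to 159756319, plus strand) had 15 sites in KO replicate 1, 13 in KO replicate 2 and 15 in WT. They formed 2 dense groups, 12 positions within 857 nt (from 159748398) and 10 within 675 nt (from 159755181), and the last position lay 464 nt from the end of the span. The annotated span of SOD2, on the minus strand, also covers all 24 WTAP positions. Of these, 23 were read on the strand of WTAP, and 1, listed in WT alone, was on the other. The position at 159755544 (GAACT) had 7 of 84 reads substituted (8.33%) in KO replicate 1, 5 of 100 (5.0%) in KO replicate 2 and 9 of 67 (13.4%) in WT. At 159748892 (GGACT) the shares were 3.45% of 174 and 3.02% of 232 reads in the KO libraries, and 7.83% of 115 reads in WT. WT was highest at both positions, while at 159755227 KO replicate 1 was highest (8.14%, against 3.0% in KO replicate 2 and 3.45% in WT).

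VIRMA, the large scaffold of the regulatory part (chromosome 8, 94487689 to 94553469), had 13 and 19 sites in KO replicates 1 and 2, and 15 in WT. All of its 31 positions were on the minus strand. They lay mostly in 3 groups, of 12 positions within 998 nt, 11 within 820 nt and 3 within 32 nt. In the last of these groups 3 sites were listed in each KO library and 1 in WT. At 94519178, in that group, 3 of 119 reads (2.52%) were substituted in KO replicate 1, 5 of 180 (2.78%) in KO replicate 2 and 7 of 129 (5.43%) in WT. The other positions in all lists had nearer values, 5.45% and 2.36% in the KO libraries and 4.44% in WT at 94511321, and 7.94%, 8.47% and 8.51% in the same order at 94526539. Of the 31 positions 16 were listed in KO alone (2 libraries) and 6 in WT alone (1 library).

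RBM15 and RBM15B, paralogous RNA-binding proteins that recruit the complex, had the densest sites. RBM15B (chromosome 3, 51391285 to 51397908, plus strand) had 15 and 24 sites in KO replicates 1 and 2 and 24 in WT, in a span of 6.62 kb. In WT 99.2% of protein-coding genes with a site had fewer, and the density of 3.62 sites per kb of span was above that of 99.1% of them. RBM15 (chromosome 1, 110339377 to 110346677, plus strand) had 14 and 18 sites in the KO libraries and 17 in WT, or 2.33 per kb in WT. Both spans are short, so density per kb of span favours them over genes with long introns. Of the RBM15B positions, 3 also lay within the span of DCAF1, and the other positions lay in no other gene's span.

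The site with the most substituted reads in the 8 genes was in RBM15B at 51393051, in a GGACC motif 1766 nt from the start. There 37 of 202 reads (18.3%, interval 13.2 to 24.4%) carried the substitution in KO replicate 1, 63 of 278 (22.7%, 17.9 to 28.0%) in KO replicate 2, and 61 of 227 (26.9%, 21.2 to 33.1%) in WT. WT was highest and the intervals overlapped. The next in RBM15B by substituted reads in WT was at 51394014 (GGACA), with 6.88% of 160 and 8.85% of 226 reads in the KO libraries and 9.43% of 212 reads in WT. At 51392557 (GAACC) the order was the other way, with 11.8% of 110 and 12.2% of 172 reads in KO and 9.40% of 149 reads in WT.

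In RBM15 the site nearest to the start, at 110339594 (GGACT, 217 nt from it), had 9 of 34 reads substituted (26.5%, interval 12.9 to 44.4%) in KO replicate 1, 6 of 32 (18.8%, 7.21 to 36.4%) in KO replicate 2 and 6 of 44 (13.6%, 5.17 to 27.4%) in WT. Both KO libraries were above WT, within wide intervals. At 110342144 (AGACA) the shares were 15.3% of 72 and 9.46% of 74 reads in KO and 14.8% of 81 reads in WT. Of the 7 RBM15 positions in all lists, both KO libraries were above WT at 4 and below it at 1. That 1 was at 110340317 (AGACT), with 3.90% of 77 and 6.06% of 99 reads in KO and 9.68% of 93 reads in WT. The position at 110340860 had 10 of 96 and 6 of 114 reads substituted in the KO libraries and was not listed in WT.

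ZC3H13, a zinc finger protein that in mouse embryonic stem cells keeps the regulatory part in the nucleus (chromosome 13, 45954465 to 46052746, minus strand), had 9 sites in KO replicate 1, 19 in KO replicate 2 and 14 in WT. Its span of 98.3 kb is the longest of the 8, and all positions lay at least 49527 nt from the start. The position at 45985592 (AGACA) had 6 of 134 reads substituted (4.48%) in KO replicate 1, 12 of 168 (7.14%) in KO replicate 2 and 10 of 157 (6.37%) in WT, with WT between the KO libraries. At 45967763 (AGACT), in a group of 13 positions within 2357 nt, the shares were 4.48% of 67 and 5.22% of 115 reads in KO and 9.76% of 82 reads in WT. That group held 3 sites in KO replicate 1, 9 in KO replicate 2 and 9 in WT. At 45969552 (GGACA) the counts were 10 of 85 reads (11.8%) in KO replicate 2 and 13 of 82 (15.9%) in WT, and KO replicate 1 did not list it.

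CBLL1, a RING-type ubiquitin ligase also called HAKAI (chromosome 7, 107744142 to 107761667, plus strand), had 6 and 7 sites in KO replicates 1 and 2, and 3 in WT. Of 11 positions 10 lay within 939 nt, from 107758226, and 8 were listed in KO alone (2 libraries, against 1 of WT). The median number of reads at its sites was 56 and 61 in the KO libraries and 17 in WT. Its 1 position in all lists, at 107758952 (TAACT), had 10 of 101 reads substituted (9.90%, interval 4.85 to 17.5%) in KO replicate 1, 5 of 130 (3.85%, 1.26 to 8.75%) in KO replicate 2 and 3 of 106 (2.83%, 0.59 to 8.05%) in WT. KO replicate 1 stood above the others, with overlapping intervals.

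**Figure D3:**
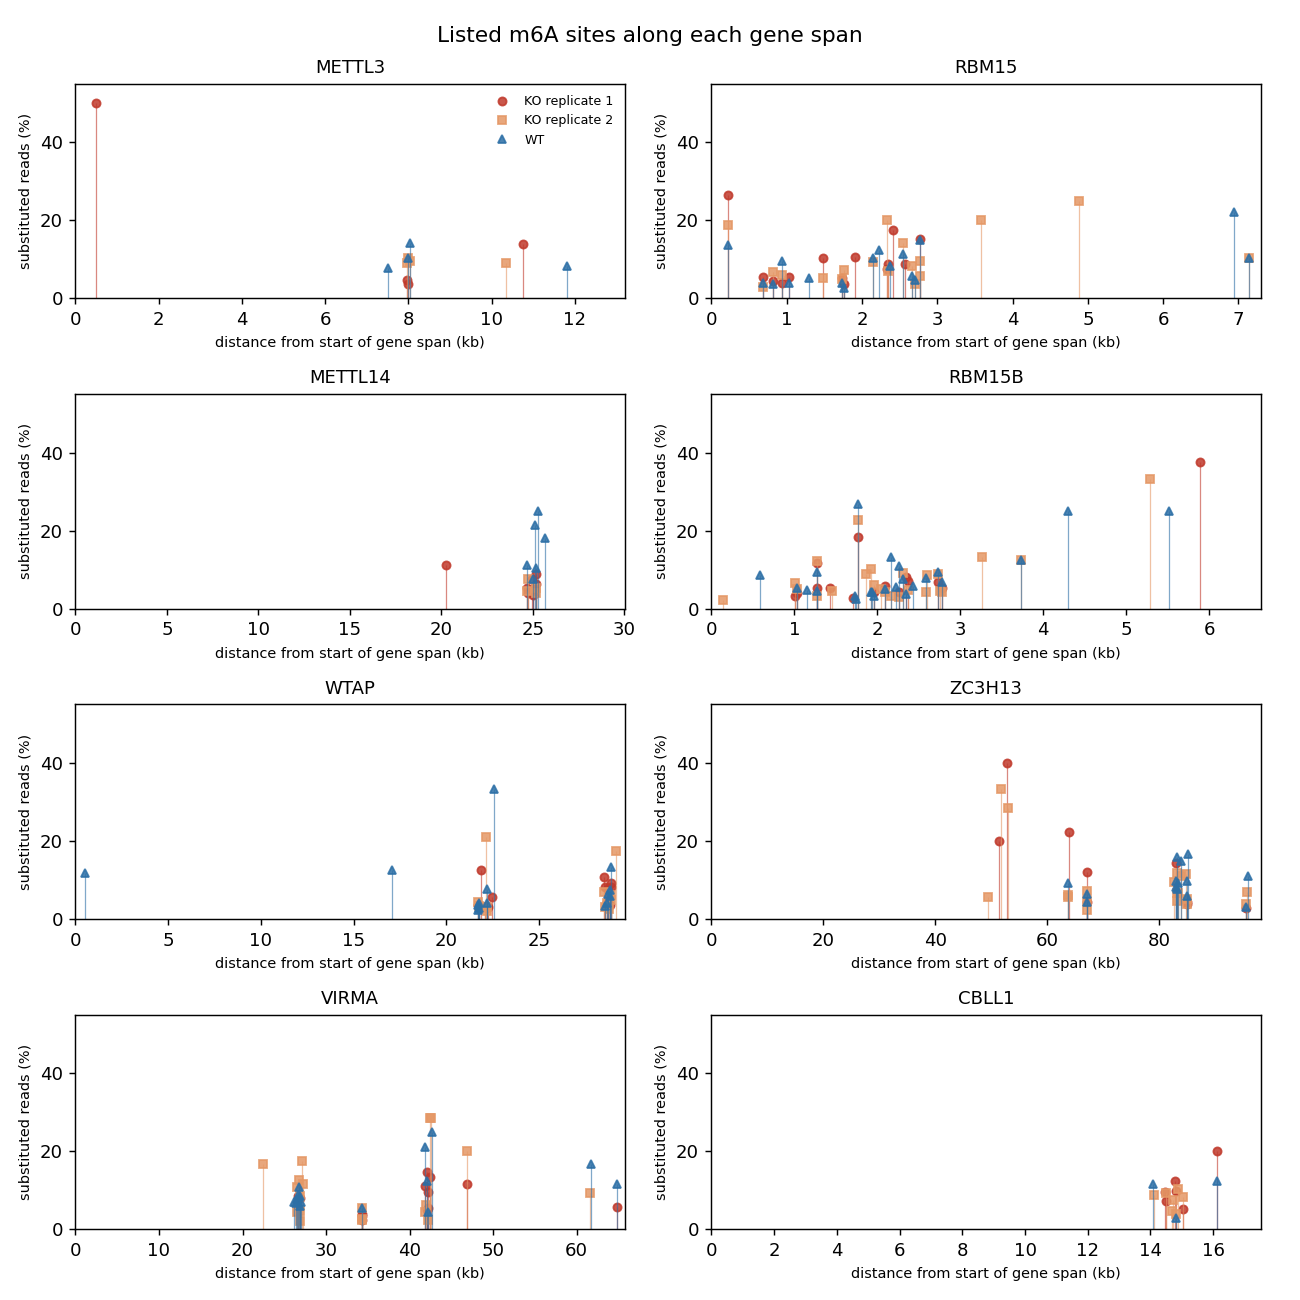
Listed m6A sites along the span of each writer gene, with the distance from the start of the span in kb (horizontal axis) and the percentage of reads that carry the substitution (vertical axis), in KO replicate 1 (circles), KO replicate 2 (squares) and WT (triangles). The span of VIRMA is read from its higher coordinate, as all its sites are on the minus strand. Sites of METTL14 and CBLL1 crowd into less than 1 kb (953 and 939 nt hold 10 positions each), while those of RBM15B run over 5752 nt.

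Which positions were listed in more than 1 library went with the number of reads. Of the 177 positions in the 8 genes, 32 (18.1%) were in all 3 lists, 49 in 2 and 96 (54.2%) in 1, against 12.7% in all 3 and 67.4% in 1 for all 90876 positions. Positions in all 3 lists had a median of 107 reads per library, those in 2 lists 69 and those in 1 list 31. Of the 10 WT sites with the most substitutions (10 or more reads), 8 were listed in both KO libraries and 0 in neither, whereas of the 18 with 2 substituted reads none was in both and 16 were in neither. Over all genes, 88.2% and 3.92% of WT sites of these sizes were in both. The pair missing from KO replicate 1 was 45969552 in ZC3H13, above, and 51393448 in RBM15B (3 of 92 reads in KO replicate 2, 10 of 76 in WT). In total 79 positions were listed in KO alone, 17 of them in both KO libraries, and 34 were listed in WT alone. KO joins 2 lists here and WT is 1. The WT list held 98 of the 177 writer gene positions, beside 43663 of all 90876, so no excess of positions in KO alone is read from these counts.

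At the 32 positions in all 3 lists, pooled over the 8 genes, 217 of 3310 reads (6.56%, interval 5.74 to 7.45%) carried the substitution in KO replicate 1, 291 of 4571 (6.37%, 5.68 to 7.11%) in KO replicate 2, and 284 of 3619 (7.85%, 6.99 to 8.77%) in WT. Over the 11576 positions of all genes in all 3 lists the shares were 6.43%, 6.30% and 6.46%. WT was thus highest in the pooled writer genes and, with closer values, over all genes. In the writer genes its interval overlapped that of each KO library. By gene, RBM15 (7.22% and 6.74% in KO, 6.65% in WT) went the other way. So did CBLL1, with 1 position (9.90% and 3.85% in KO, 2.83% in WT). In the other members both KO shares were below WT. Without the strongest RBM15B position the shares were 5.79% and 5.31% in the KO libraries and 6.57% in WT.

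By position, both KO libraries were below WT at 16 of the 32, beside a background of 34.7% of all shared positions, and both above at 7, beside a background of 31%. The median difference was -0.83 percentage points (KO replicate 1 minus WT) and -0.94 (KO replicate 2 minus WT), against -0.0048 and -0.25 over all shared positions. The size of the difference at a position had a median of 1.80 and 2.27 points between each KO library and WT, and 1.88 between the KO libraries, so the spread between KO replicates lay between the KO and WT distances. At none of the 32 positions was the interval of a KO library apart from that of WT, or from that of the other KO library. The same count was not made over all shared positions, so no result about the writer genes is read from it. With 1 WT library the genotype has no test, and a position that lost its substitutions in KO cannot be among the 32.

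**Figure D4:**
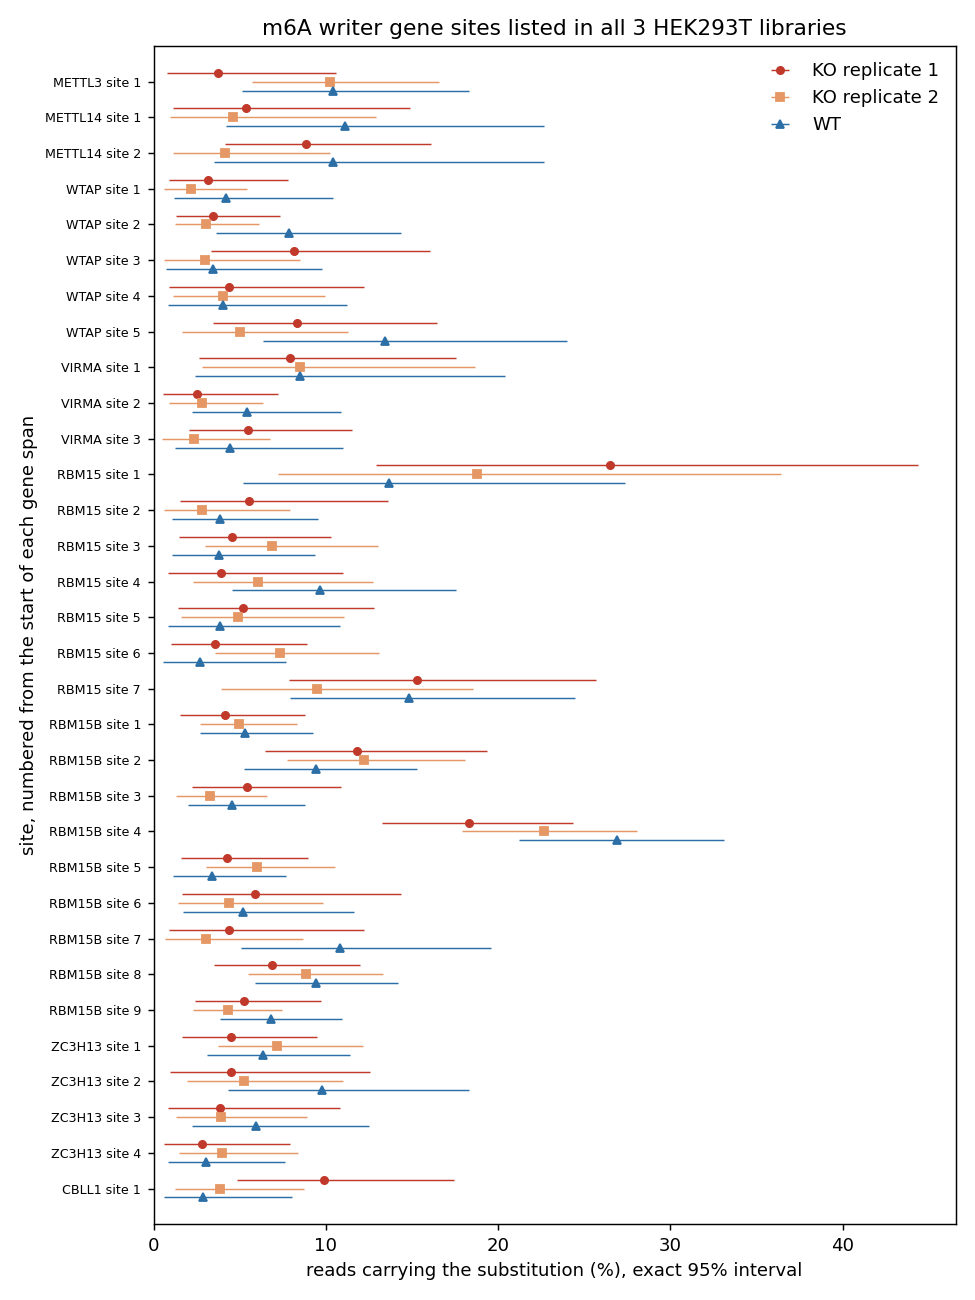
Percentage of reads with the substitution (horizontal axis) at the 32 writer gene positions listed in all 3 HEK293T libraries, numbered from the start of each gene span, in KO replicate 1, KO replicate 2 and WT, with exact 95% intervals for counting error. Intervals overlap between KO and WT at every position, a count not made over all genes. RBM15B site 4 stands out with 18.3% and 22.7% in KO and 26.9% in WT.

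Over all listed sites of the 8 genes, shared or not, 6.50% of 6507 reads (5.91 to 7.13%) were substituted in KO replicate 1, 6.41% of 9838 (5.94 to 6.92%) in KO replicate 2 and 7.56% of 7064 (6.95 to 8.20%) in WT. The WT interval overlapped that of KO replicate 1 and lay just above that of KO replicate 2, over partly different positions. Over all genes the listed sites gave 7.17%, 6.69% and 7.29% in these libraries, so WT was also highest there. METTL14 was lower in both KO libraries (6.01%, 4.09 to 8.47%, and 5.47%, 3.22 to 8.61%) than in WT (11.2%, 7.32 to 16.2%). These intervals overlapped, over different positions and with a median of 58 and 78.5 reads per site in KO and 31 in WT. CBLL1 was higher in both KO libraries (9.62% and 6.73%) than in WT (5.04%), also with overlapping intervals. Its median was 56 and 61 reads per site in KO and 17 in WT. RBM15 was also higher in KO (8.02% and 7.42%) than in WT (6.88%). METTL3, WTAP, VIRMA, RBM15B and ZC3H13 were lower in both KO libraries than in WT. A site with fewer reads needs a larger share to reach the least count listed, and the part of depth in these differences was not tested.

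By motif, the AGAC core made up 52 of the 177 writer gene positions (29.4%), against 19.8% of all positions. The GGAC core made up 50 (28.2%, against 32.1%), and AAC cores 60 (33.9%, against 36.5%). RBM15B had most GGAC, at 16 of 37 positions, and ZC3H13 most AGAC, at 13 of 29. These shares are given without a test, as neighbouring positions share reads.

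**Figure D5:**
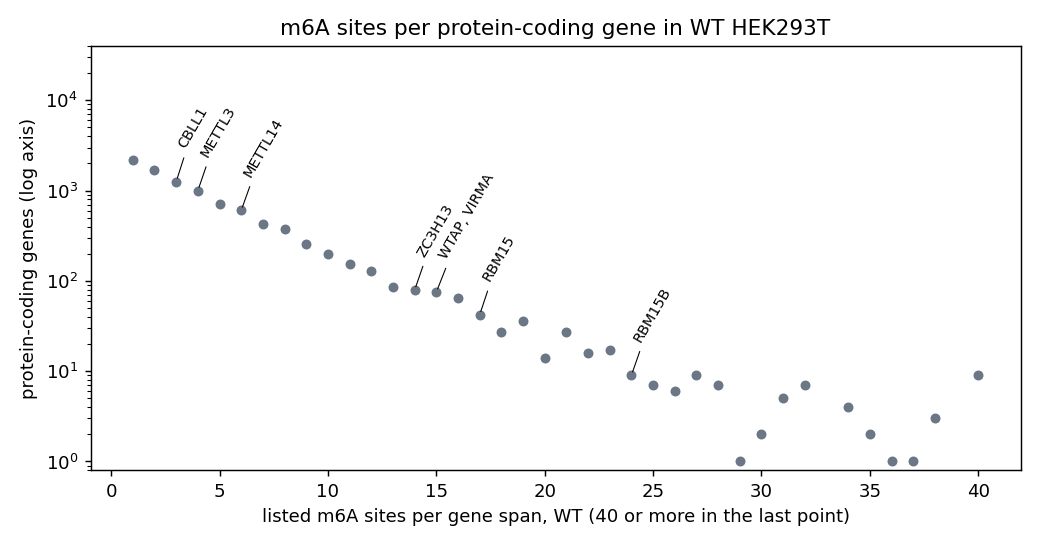
Number of protein-coding genes (vertical axis, log scale) by listed m6A sites in their span in WT HEK293T (horizontal axis), 1 point per number of sites, with the 8 writer genes marked. RBM15B (24 sites) and RBM15 (17) lie far to the right, with 99.2% and 97.4% of genes with a site below them. WTAP and VIRMA (15 each, 95.9%) and ZC3H13 (14, 95.1%) follow, and CBLL1 (3) lies at the median.

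Erasers and readers of m6A also carried sites throughout, and their RNA was the only RNA of the pathway that the files name. All 13 listed (FTO, ALKBH5 and the YTH, IGF2BP, HNRNP and FMR1 readers) had a site in all 3 libraries, with a median of 4 and 10 sites in KO replicates 1 and 2 and 7 in WT. An m6Am region lay at the start of 5 of them, beside the background of 9.4%. YTHDF3 and IGF2BP1, whose strand is not in the tables used, were not searched, whereas both ends of VIRMA were. The authors' deposited table of translational efficiency classes the start of IGF2BP1 as m6Am. Of 6 other RNA adenosine methyltransferases and partners, 3 had a site in all 3 libraries. By library, 6 and 4 had a site in KO replicates 1 and 2, and 5 in WT. Of all protein-coding genes 46.6%, 48.5% and 47.7% had a site in the same libraries, and the share in all 3 together was not counted. METTL16, which methylates U6 snRNA, had most in WT (5 and 7 in KO, 9 in WT) and a region at its start (score 3.39). Input counts could be tied to 5 of the 13 and to no writer gene. edgeR's quasi-likelihood test, which called 5 of 14629 genes (0.0342%), called 0 of these 5, with 1 at an unadjusted p under 0.05 (1360 of all 14629 genes), and DESeq2 called 0 of them. Of the 5, 2 were higher and 3 lower in KO, with a median log2 fold change of -0.06, against -0.02 for all genes tested.

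IGF2BP1, a reader that stabilises its targets, had 642, 623 and 625 CPM in KO replicates 1 to 3, against 882 and 697 CPM in WT replicates 1 and 2. All KO libraries were below both WT libraries, and its log2 fold change was -0.36 (SE 0.10, edgeR adjusted p = 0.449). Over the alternative fits its adjusted p ranged from 4.39e-07 without WT replicate 2, and 0.0173 without a filter on low counts, to 0.909 without KO replicate 1. Without WT replicate 1 the fold change was -0.15. FMR1, a translational repressor that binds m6A, had 56.1, 67.2 and 53.4 CPM in KO and 47.8 and 57.6 CPM in WT, with groups that overlapped (0.13, SE 0.15, edgeR adjusted p = 0.814). The authors' deposited tables of translational efficiency (765 genes) and of SLAM-seq ratios (666 genes) list 0 of the 8 writer genes.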

How the data were processed

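Per the submitters' processing notes, BWA 0.7.17, STAR, bedtools and deepTools were used, with no role given. The deposited m6A lists give counts of substituted reads, and of all reads, at single DRACH positions per library, and the deposited input table gives raw read counts per Ensembl gene (4511687 to 5960674 per library, so that 3 counts are 0.503 to 0.665 CPM). No source used here says how sites were called or reads counted. The authors' m6Am list carries a score per region. The authors' deposited tables hold log2 fold changes, a mean normalized signal, p-values and a test score of translational efficiency, and a KO over WT ratio from SLAM-seq.

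Sites within a gene span (RefSeq, GRCh38.p14) were counted without regard to strand, and regions within 50 nt of a start on its strand. Strand came from the promoter table, which covers 15843 of 20037 protein-coding genes. For VIRMA, which it lacks, both ends of the span were searched for regions on either strand. Shares carry exact Clopper-Pearson intervals (scipy 1.17.1). For input counts, the quasi-likelihood F test of edgeR 4.0.16 (R 4.3.3) was used (TMM, filterByExpr, Benjamini-Hochberg, threshold 0.05, two-sided), with DESeq2 1.42.0 as an alternative, and the script was tested on simulated data. As the labels do not state separate cultures, p-values reflect the spread of the libraries alone, in part perhaps technical. Pairs of input replicates differed by more than sampling noise, and the WT pair the most. The chi-square per degree of freedom was 8.29 for the WT pair and 2.92 to 3.35 for the KO pairs.

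The reference holds 0 Ensembl identifiers, so the members' rows in the input and fragment tables were not identified, and the planned tests of members in fragments, in translational efficiency and for genes with a like RNA pattern were not run. Mouse genes were not named, and the MEF lists (37141 and 38455 sites) were not used further. All 8 members and the lists were chosen with earlier results of these data known. Named genes were all members, and of the other lists those past the threshold or, with none, the 2 with the smallest p. The start sequence of 1 member and the result of 1 marker list are not reported here.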

Additional observations from a re-analysis of the deposited data

How the results depend on the processing

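The total of member sites held within 1.5 times on the own strand (84, 108 and 97 in KO replicate 1, KO replicate 2 and WT), with spans widened by 1000 nt (91, 120 and 108) and, added after seeing the data, without sites that another gene's span also holds (68, 94 and 82), though WTAP then keeps 0 sites in each library. With at least 5 substituted reads per site 29, 52 and 36 remained, METTL3 had 0, 2 and 1, and CBLL1 had 2, 4 and 0. The share of substituted reads was then 7.31% and 6.89% in the KO libraries and 8.85% in WT. Over sites in all 3 lists without the strongest RBM15B site, also added later, it was 5.79% and 5.31% in KO and 6.57% in WT. WT was highest in each of these settings. The count of m6Am regions was 2 within 200 nt and among regions above the median score.

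In the input test, 5 genes were called; DESeq2 called 15, and edgeR 152 without a filter and 2 to 1912 when a library was left out. Without a WT library that group is 1 sample, assumed to vary like the KO group. With the replicate block edgeR called 3, and same-numbered libraries deviated together with r = 0.16 (number 1) and -0.00 (number 2), so the numbers were not taken to pair them. FTO turned to 0.15 without WT replicate 1 (lowest -0.29, without WT replicate 2), HNRNPA2B1 to 0.048 (lowest -0.13) in the same fits, and HNRNPC to -0.020 without WT replicate 2 (highest 0.13). Positions in 1 list had a median of 31 reads and those in all 3 lists 107, counted where listed, and the part of depth in this was not tested. The 1 WT library leaves KO against WT untested.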
